A study of Mus musculus with 26 samples.

Results

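The genes described here encode TNF, IL-6, IL-10, oncostatin M, TGF-beta 1, M-CSF and VEGF-A, and their symbols on the array are Tnf, Il6, Il10, Osm, Tgfb1, Csf1 and Vegfa. All probes carrying 1 of these 7 symbols were taken, which gave 10 of the 25697 probes (7 of 18138 gene symbols) of the deposited raw matrix. The genes were chosen with the difference between restraint and control on these arrays in view, so that difference is given for them as a description and without a p-value. A detection filter (detection p under 0.05 on at least 3 arrays) kept 8 of the 10 probes and 15061 probes in all. Osm probe ILMN_2543107 and Vegfa probe ILMN_3045723 were each detected on 1 of 26 arrays and were left out.

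The arrays carried RNA from femoral bone marrow leukocytes of male SCID mice (CB17/Icr-Prkdcscid), which lack mature B and T cells, aged 6 to 8 weeks. All groups, the controls included, carried grafts of human acute lymphoblastic leukemia. The human cells were gated out in the sort, and no group without leukemia was measured. The 3 conditions were home cage control, restraint stress, and restraint stress with propranolol, a drug that blocks beta-adrenergic receptors. Each of 2 experiments held 5 control, 5 restraint and 3 restraint plus propranolol arrays, and no group received propranolol without restraint. Whether each array was a separate mouse is not stated in the labels, so the errors and p-values measure the spread between arrays.

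TNF and IL-6 are secreted by activated myeloid cells and drive inflammation, whereas IL-10, made by many of the same cells, restrains it. Oncostatin M is an IL-6 family cytokine that neutrophils and monocytes release in marrow, where it acts on stromal and bone cells. M-CSF keeps monocytes and macrophages alive, TGF-beta 1 holds stem cells quiescent and dampens immune cells, and VEGF-A acts on marrow vessels. The comparison of restraint with control asks how chronic stress shifts these transcripts, and the propranolol arm asks whether beta-adrenergic blockade alters that shift.

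RefSeq promoter windows of the GRCm38.p6 assembly were found for 5 of the 7 genes, and the 250 bases before the start were searched on both strands. The motifs were TATAAA (the TATA box), TGANTCA (AP-1), TGACG (the cAMP response element half-site), ACGTG (the core bound by hypoxia-inducible factors) and the kappaB consensus. The windows of Tnf, Il6 and Csf1 are shown because the first of these genes stood apart between conditions while the other pair varied more within groups, and capitals mark the motif matches.
Tnf promoter, chr17:35202008-35202257, - strand: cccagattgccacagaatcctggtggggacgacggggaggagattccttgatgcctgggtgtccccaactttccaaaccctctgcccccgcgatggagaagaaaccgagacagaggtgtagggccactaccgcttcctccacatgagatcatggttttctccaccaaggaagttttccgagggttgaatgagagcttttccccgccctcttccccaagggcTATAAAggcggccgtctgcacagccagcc
Il6 promoter, chr5:30012864-30013113, + strand: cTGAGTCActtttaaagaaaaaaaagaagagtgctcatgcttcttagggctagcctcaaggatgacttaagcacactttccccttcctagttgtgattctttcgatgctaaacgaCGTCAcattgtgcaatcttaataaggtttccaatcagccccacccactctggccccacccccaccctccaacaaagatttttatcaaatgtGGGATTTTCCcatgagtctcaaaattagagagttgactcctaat
Csf1 promoter, chr3:107760470-107760719, - strand: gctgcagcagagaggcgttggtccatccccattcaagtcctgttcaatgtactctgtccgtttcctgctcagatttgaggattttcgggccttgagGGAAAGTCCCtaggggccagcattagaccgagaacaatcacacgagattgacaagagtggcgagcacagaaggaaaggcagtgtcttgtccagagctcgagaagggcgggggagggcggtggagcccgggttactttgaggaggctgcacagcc
The Tnf window held TATAAA, beginning 29 bases before the start, and none of the other motifs. The Il6 window held GGGATTTTCC, a kappaB match, from 44 bases before the start, the half-site TGACG on its other strand from 135 and an AP-1 match from 249. The Csf1 window held 1 kappaB match, GGAAAGTCCC, from 154 bases before the start. Of the other windows, that of Tgfb1 held a kappaB match from 140 bases before the start, 1 of 2 Vegfa windows held a kappaB match from 118, and the second Vegfa window held TGACG and ACGTG on its other strand, overlapping by 3 bases. Among 32851 promoter windows of the same length, 7.25% held the kappaB consensus, 6.75% TGANTCA, 17.8% TGACG, 16.6% ACGTG and 12.4% TATAAA. A match describes these letters and says nothing of binding.

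Between 39.5% and 51.2% of probes were detected per array, and median raw intensity ranged from 124 to 157. The leukocyte markers Ptprc, Cd52, Coro1a and Laptm5 were detected on all 26 arrays. Quality weights fitted by limma were lowest for restraint plus propranolol replicate 3 of experiment 2 (0.155), control replicate 4 of experiment 2 (0.199) and control replicate 5 of experiment 1 (0.278), and results that moved by over 1.5 times without these 3 arrays are given both ways. Each gene is read by its own probe, so levels are compared between groups and not between genes. All levels are background-corrected, quantile-normalized log2 intensities, and differences are differences of log2 intensity with their standard error (SE).

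In these bulk samples, fewer cells of a type and less RNA per cell cannot be told apart. Tnf and Il10 had higher means in both stressed conditions than in control, and Osm had lower means. Only the Tnf arrays were free of overlap with control throughout. Il10 overlapped with control under restraint in experiment 1 and with propranolol in experiment 2. Osm overlapped under restraint in both experiments and with propranolol in experiment 2. Il6 and Csf1 had higher means under restraint and overlapped with control in both experiments, and Tgfb1 and Vegfa differed little. In restraint minus control, 2 of the 8 probes, Tnf higher and Osm lower, passed an adjusted p under 0.05 in limma, where 2.06% of all 15061 probes passed. As the genes were chosen on this contrast, nothing is read from that count. In restraint plus propranolol minus restraint 0 of the 8 passed in limma, with 2, Tnf and Il10, at an unadjusted p under 0.05. The Il10 p-value rests in part on control readings below detection. In the same comparison 0% of the 15061 probes passed, with 940 at an unadjusted p under 0.05. In restraint plus propranolol minus control, 3 of the 8 passed, Tnf and Il10 higher and Osm lower, against 3.49% of all probes. The last comparison uses the same control arrays as the first, and the second uses the same restraint arrays. As the genes were chosen with these control arrays in view, the last count and the p-values of the members in it are descriptions. Il10 also met the detection filter only through stressed arrays.

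**Figure D1:**
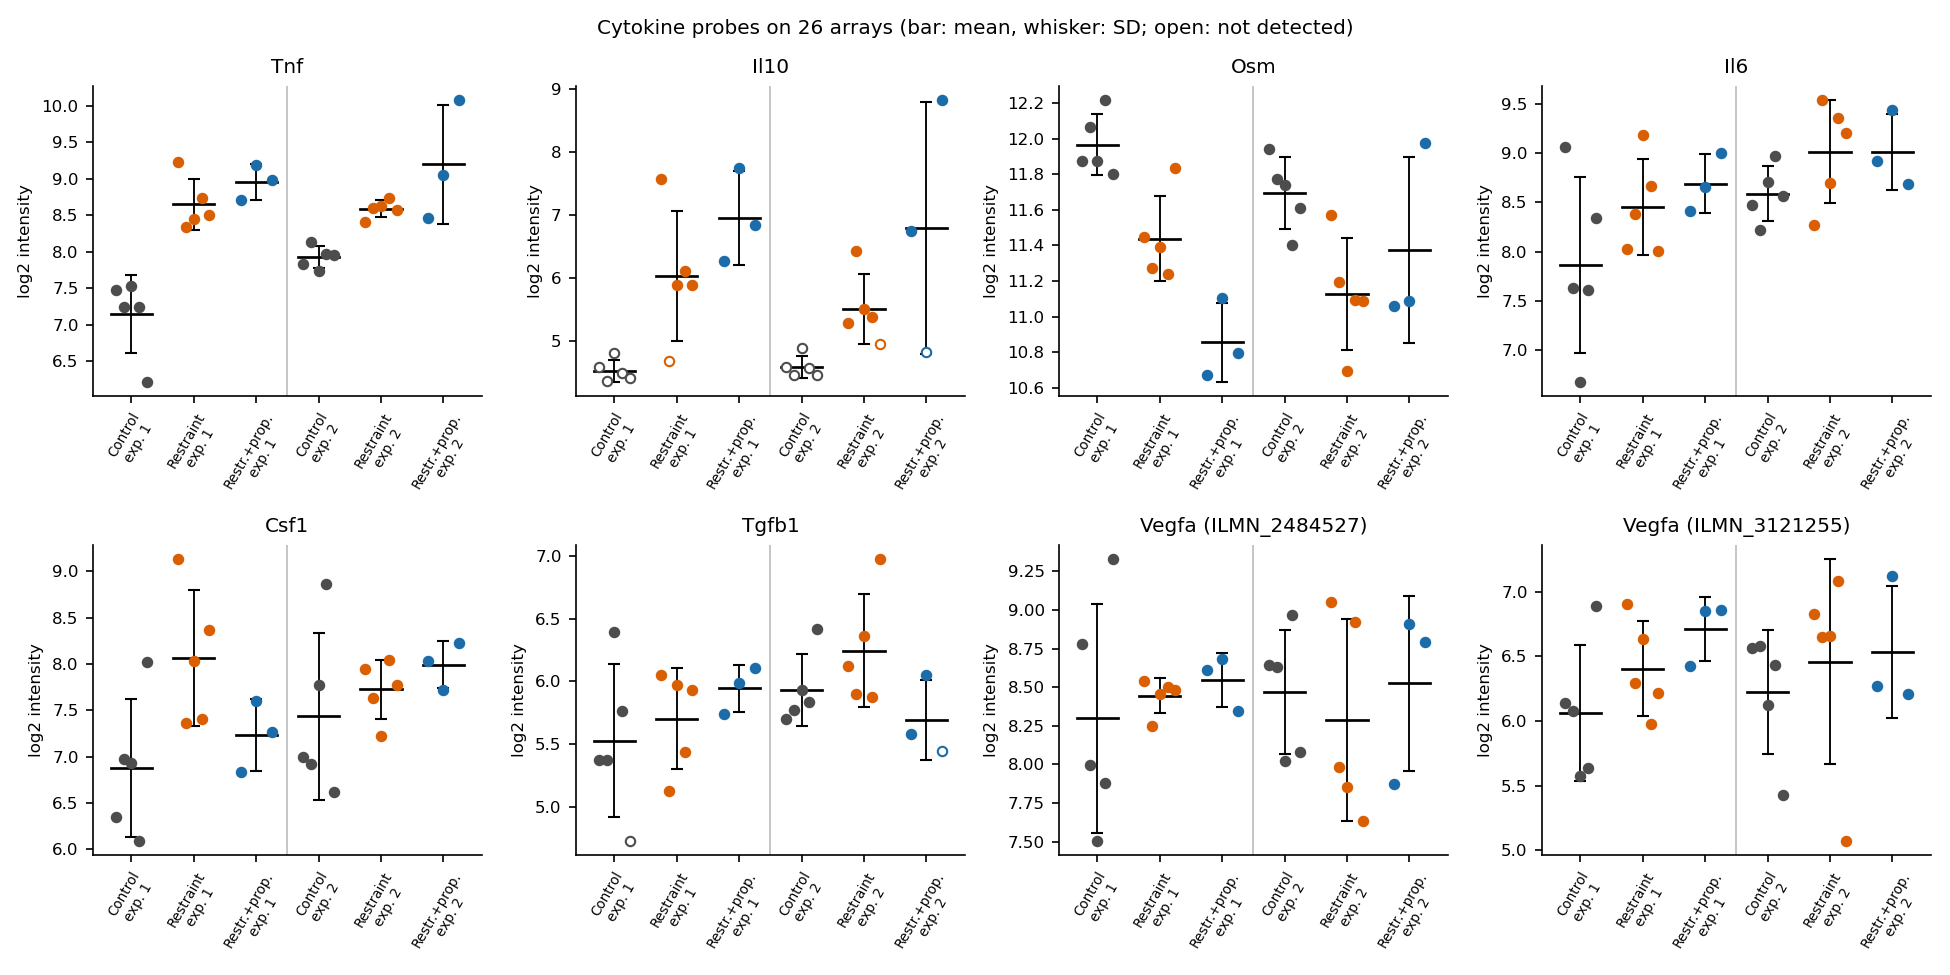
Log2 intensity of the 8 measured cytokine probes on each of 26 arrays, by condition and experiment, with the group mean as a bar, the SD as a whisker and open symbols where the probe was not detected. Tnf on all 10 restraint arrays lies above every control array of its experiment, Il10 is undetected on all 10 control arrays, and Osm is lower on most restraint arrays.

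Tnf lies on chromosome 17 (35199367 to 35202007) and was detected on all 26 arrays by probe ILMN_2899863. In experiment 1 its level was 7.48, 7.25, 7.54, 7.25 and 6.22 on the control arrays and 9.22, 8.34, 8.45, 8.74 and 8.51 on the restraint arrays. On the 3 restraint plus propranolol arrays of that experiment it was 8.70, 9.19 and 8.98. The lowest restraint array thus stood above the highest control array, and the restraint and propranolol arrays overlapped. In experiment 2 the level was 7.83, 8.13, 7.74, 7.97 and 7.96 under control, 8.41, 8.59, 8.62, 8.74 and 8.57 under restraint, and 8.46, 9.05 and 10.08 under restraint plus propranolol. Again no restraint or propranolol array fell into the control range, and propranolol replicate 3, the array of lowest quality weight, was the highest of all. The control groups of the experiments were themselves apart, with means of 7.15 ± 0.53 (SD, n = 5) and 7.93 ± 0.15 (SD, n = 5), whereas the restraint means were 8.65 ± 0.35 (SD, n = 5) and 8.59 ± 0.12 (SD, n = 5).

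Restraint minus control for Tnf was 1.08 ± 0.19 (SE), or 2.12-fold, with all 10 restraint arrays above their control mean. It was 1.50 in experiment 1 and 0.66 in experiment 2, a difference between experiments of -0.84 ± 0.35 (SE). Separation of all arrays in both experiments, in the higher direction, was found for 0.173% of probes. As Tnf was chosen with this contrast in view, nothing is read from that share. Without the 3 arrays of lowest weight the difference was 0.97, and within the slides that held both conditions it was 1.52 on slide 1 (3 restraint and 5 control arrays) and 0.62 on slide 3 (5 and 2). The deposited normalized matrix gave 0.73.

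Restraint plus propranolol minus restraint for Tnf was 0.46 ± 0.22 (SE), with a 95% interval from 0.01 to 0.90, and did not pass (limma adjusted p = 0.795). The mean under propranolol was above that under restraint in both experiments, by 0.31 and 0.61, and the difference was 0.27 without the 3 low-weight arrays. Within slide 3, where 1 propranolol array met 5 restraint arrays, it was -0.13. Against control, restraint plus propranolol was higher by 1.54 ± 0.22 (SE), or 2.91-fold, with 6 of 6 arrays above the control mean (limma adjusted p = 0.000108). Tnf passed in each experiment taken alone, at 1.81 (limma adjusted p = 0.00236) and 1.27 (limma adjusted p = 0.0344), experiments in which 0.538% and 0.85% of probes passed. Its arrays did not overlap with control in either, as was so for 0.876% of probes in that direction. Tnf was chosen with these control arrays in view, so these calls and shares are descriptions. Without the 3 low-weight arrays the difference was 1.24 (limma adjusted p = 9.54e-05). With slide as a fixed term it was 1.19 and no longer passed (limma adjusted p = 0.178); 5 of the 6 propranolol arrays lay on slides without a control array of their experiment.

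Il10 lies on chromosome 1 (131019845 to 131024970), and its probe ILMN_1238505 was detected on 0 of 10 control arrays, 8 of 10 restraint arrays and 5 of 6 restraint plus propranolol arrays. In experiment 1 the control arrays read 4.59, 4.36, 4.80, 4.49 and 4.41, the restraint arrays 7.57, 4.68, 5.88, 6.12 and 5.89, and the propranolol arrays 6.27, 7.75 and 6.84. In experiment 2 they read 4.58, 4.45, 4.88, 4.57 and 4.46 under control, 5.28, 6.43, 5.51, 5.38 and 4.95 under restraint, and 6.75, 4.82 and 8.83 under restraint plus propranolol. The control values are not well above background and have no order among themselves. Restraint replicates 2 (experiment 1) and 5 (experiment 2) and propranolol replicate 2 of experiment 2 were also undetected.

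Since control gave only a bound, Il10 on the background-corrected intensities was at least 1.71-fold higher under restraint than under control. The measured means were 5.77 ± 0.83 (SD, n = 10) and 4.56 ± 0.17 (SD, n = 10). The bound set the control mean at the detection floor of each array, 4.99 on average, and was at least 2.09-fold in experiment 1 and at least 1.40-fold in experiment 2. Undetected stressed arrays entered at their readings, so the bound is not strict. Restraint plus propranolol, with a mean of 6.88 ± 1.35 (SD, n = 6), was at least 3.69-fold above control by the same rule. That difference passed in the fit (limma adjusted p = 0.00147), whose p-value rests on control values below detection. The probe met the detection filter only through stressed arrays. Its fits against control, here and in the next paragraph, are therefore descriptions from which nothing is read. All 6 of 6 propranolol arrays were above the control mean, and the bound was at least 3.98-fold in experiment 1 and at least 3.42-fold in experiment 2. The experiment 2 mean held 1 undetected array at its reading of 4.82 and, at 8.83, the array of lowest quality weight. Taken alone, neither experiment passed (limma adjusted p = 0.061 and 0.0679). The bounds hold for the background-corrected intensities alone. In the deposited normalized matrix the differences from control were 0.43 for restraint and 0.98 for restraint plus propranolol. Without background correction they were 0.414 and 0.955. All of these are smaller than the bounds over both experiments.

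Between the stressed conditions, Il10 was 1.11 ± 0.40 (SE) higher with propranolol, with a 95% interval from 0.28 to 1.94. The difference did not pass (limma adjusted p = 0.675, unadjusted p = 0.0108 in the same fit). The fit took a shared residual spread over all arrays, control included. The SDs were 1.35 (n = 6) with propranolol, 0.83 (n = 10) under restraint and 0.17 (n = 10) in the undetected control. The SE, interval and p-values of this paragraph therefore rest in part on control values below detection. Nothing is read from the interval or the unadjusted p. The Il10 difference was the 6th largest positive difference among 15061 probes, and 5 of 6 propranolol arrays were above the restraint mean. Without the 3 low-weight arrays this difference was 0.67 (limma adjusted p = 0.763), and the deposited normalized matrix gave 0.54 (limma adjusted p = 0.587). Against control the probe passed in both of those settings (limma adjusted p = 0.00794 and 0.0038) and did not when slide entered as a fixed term (limma adjusted p = 0.207).

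Across arrays Il10 was set against Tnf as a description, with Il10 below detection on 13 of the 26 arrays, including all 10 control arrays. After the mean of each experiment was subtracted, Pearson's r was 0.83 and Spearman's rho 0.83 over 26 arrays, and r was 0.81 without the 2 arrays farthest from the median of Tnf. This value holds the differences between conditions. After the mean of each of the 6 groups was subtracted, r was 0.58 and rho 0.55, and r was 0.51 without the 2 farthest arrays and 0.51 without the 3 low-weight arrays. The points share their arrays and normalization, so these values describe the arrays.

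**Figure D2:**
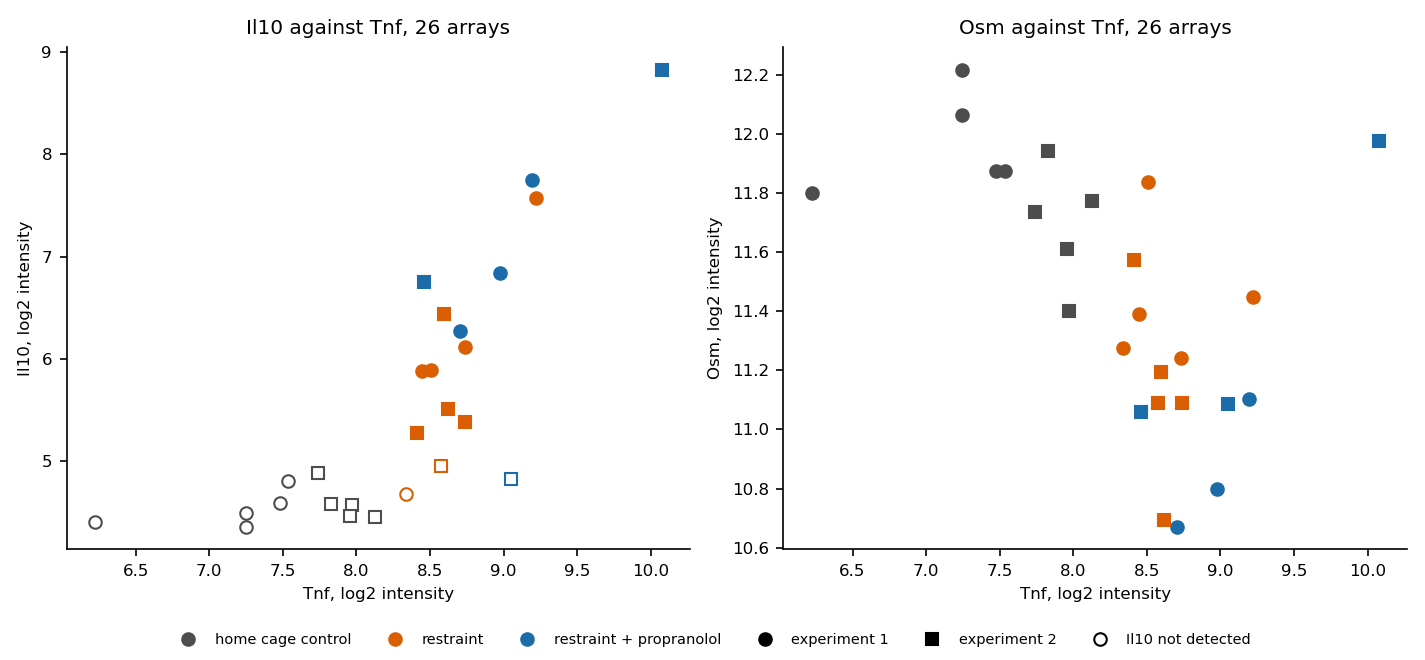
Log2 intensity of Il10 (left) and Osm (right) against that of Tnf on 26 arrays, coloured by condition, with circles for experiment 1 and squares for experiment 2. Open symbols in the left panel mark arrays where Il10 was not detected. All symbols in the right panel are filled, as Osm was detected on all 26 arrays. Il10 is detected only on arrays with Tnf above the control range, and the array with the highest Tnf, 10.08, also has the highest Il10, 8.83, and an Osm level of 11.98.

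Osm lies on chromosome 11 (4236785 to 4241026), and its probe ILMN_2919411 was detected on all 26 arrays. In experiment 1 the control arrays read 11.87, 12.07, 11.87, 12.22 and 11.80, the restraint arrays 11.45, 11.28, 11.39, 11.24 and 11.84, and the propranolol arrays 10.67, 11.10 and 10.80. There the propranolol arrays lay below all restraint arrays and these, apart from replicate 5, below all control arrays. Propranolol arrays all below restraint arrays in experiment 1 were found for 1.92% of probes. In experiment 2 the levels were 11.94, 11.77, 11.74, 11.40 and 11.61 under control, 11.57, 11.19, 10.70, 11.09 and 11.09 under restraint, and 11.06, 11.09 and 11.98 under propranolol. Restraint replicate 1 reached into the control range, and propranolol replicate 3, the array of lowest weight, was above every control array.

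Restraint minus control for Osm was -0.55 ± 0.15 (SE), or 1.46-fold lower, with 0 of 10 restraint arrays above their control mean. The difference was nearly equal in the experiments, -0.53 and -0.56, and was -0.60 without the 3 low-weight arrays. Restraint plus propranolol was lower than control by a fitted difference of -0.71 ± 0.17 (SE), 1.64-fold, with 5 of 6 arrays below the control mean (limma adjusted p = 0.0163). In experiment 1 alone it was -1.11 (limma adjusted p = 0.0118) and in experiment 2 alone -0.32 (limma adjusted p = 0.465). The difference between the experiments, 0.79 ± 0.30 (SE), did not pass (limma adjusted p = 0.888; unadjusted p = 0.0137). Without the 3 low-weight arrays, which include the high propranolol array, the fitted Osm difference was -0.96 (limma adjusted p = 0.000391).

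The Osm call against control was lost when propranolol replicate 1 or replicate 3 of experiment 1 was left out, at -0.61 (limma adjusted p = 0.0537) and -0.64 (limma adjusted p = 0.0533). It was also lost with slide as a fixed term (-0.89, limma adjusted p = 0.16) and with median scaling (-0.62, limma adjusted p = 0.0843). Against restraint, the propranolol difference was -0.17 ± 0.17 (SE; limma adjusted p = 0.918), made of -0.58 in experiment 1 and 0.25 in experiment 2, and was -0.36 without the 3 low-weight arrays. That contrast between experiments was 0.83 ± 0.30 (SE) and did not pass (limma adjusted p = 0.917; unadjusted p = 0.0103). Osm and Tnf had r = -0.50 over the 26 arrays after the experiment means were subtracted and r = -0.77 without the 3 low-weight arrays. Within groups the value was 0.40 with all arrays and 0.17 without those 3.

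Il6 lies on chromosome 5 (30013114 to 30019975) and was detected on all arrays by probe ILMN_1243601. In experiment 1 it read 9.06, 7.63, 6.68, 7.61 and 8.34 under control, 8.03, 8.38, 9.19, 8.66 and 8.01 under restraint, and 8.41, 8.65 and 9.0 with propranolol. In experiment 2 it read 8.47, 8.22, 8.71, 8.97 and 8.56 under control, 8.27, 9.54, 8.69, 9.36 and 9.21 under restraint, and 8.93, 9.44 and 8.68 with propranolol. The groups overlapped throughout, and control replicate 1 of experiment 1 was above 4 of its 5 restraint arrays. Restraint minus control was 0.51 ± 0.23 (SE), with 9 of 10 restraint arrays above the control mean, and 0.59 and 0.43 in the experiments. Restraint plus propranolol differed from restraint by 0.12 ± 0.26 (SE; limma adjusted p = 0.966) and from control by 0.63 ± 0.26 (SE; limma adjusted p = 0.192), neither of which passed. The 95% intervals of these differences ran from -0.42 to 0.65 and from 0.09 to 1.16. Without the 3 low-weight arrays the difference from restraint was 0.21.

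Csf1 lies on chromosome 3 (107741048 to 107760469) and was detected on all arrays by probe ILMN_1254561. In experiment 1 it read 6.34, 6.98, 6.93, 6.09 and 8.02 under control, 9.13, 7.36, 8.03, 7.41 and 8.37 under restraint, and 6.83, 7.60 and 7.27 with propranolol. Control replicate 5, an array of low weight, was the only control array inside the restraint range. In experiment 2 it read 7.0, 6.92, 7.77, 8.86 and 6.62 under control, 7.95, 7.64, 7.22, 8.04 and 7.78 under restraint, and 8.03, 7.72 and 8.22 with propranolol. Here control replicate 4, also of low weight, was the highest array of the experiment. Restraint minus control was 0.74 ± 0.28 (SE) over both, 1.19 in experiment 1 and 0.29 in experiment 2, and 1.06 without the 3 low-weight arrays. Within slide 3 it was -0.02. Propranolol differed from restraint by -0.28 ± 0.33 (SE; limma adjusted p = 0.929), made of -0.83 in experiment 1 and 0.27 in experiment 2, whose difference of 1.09 ± 0.63 (SE) did not pass (limma adjusted p = 0.919). Against control the difference was 0.46 ± 0.33 (SE; limma adjusted p = 0.479).

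Tgfb1 lies on chromosome 7 (25687002 to 25705077), and its dim probe ILMN_2711461 was detected on 24 of 26 arrays. In experiment 1 it read 5.37, 5.37, 6.40, 5.77 and 4.73 under control, 6.05, 5.13, 5.97, 5.44 and 5.93 under restraint, and 5.74, 5.99 and 6.11 with propranolol. In experiment 2 it read 5.70, 5.77, 5.93, 5.84 and 6.42 under control, 6.12, 5.90, 6.36, 5.87 and 6.98 under restraint, and 5.59, 6.05 and 5.45 with propranolol. All groups overlapped. The 2 undetected arrays were control replicate 5 of experiment 1 and propranolol replicate 3 of experiment 2, both of low weight. Restraint minus control was 0.24 ± 0.19 (SE), and 0.13 without the 3 low-weight arrays. The deposited normalized matrix gave 0.09. Propranolol differed from restraint by -0.15 ± 0.22 (SE; limma adjusted p = 0.939), or -0.05 without the 3 arrays, and from control by 0.09 ± 0.22 (SE; limma adjusted p = 0.871).

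Vegfa lies on chromosome 17 (46016993 to 46032377) and was read by 2 probes detected on all arrays. On probe ILMN_2484527 the group means ran from 8.29 ± 0.65 (SD, n = 5) under restraint in experiment 2 to 8.55 ± 0.18 (SD, n = 3) with propranolol in experiment 1. On probe ILMN_3121255 they ran from 6.07 ± 0.53 (SD, n = 5) under control in experiment 1 to 6.71 ± 0.25 (SD, n = 3) with propranolol in experiment 1. Neighbouring group means differed by at most 0.18 on either probe, less than the larger SD of each pair. Restraint minus control was -0.02 ± 0.21 (SE) and 0.29 ± 0.22 (SE), and the probes had r = 0.66 over the 26 arrays after the experiment means were subtracted. Propranolol differed from restraint by 0.17 ± 0.25 (SE; limma adjusted p = 0.941) and 0.19 ± 0.25 (SE; limma adjusted p = 0.937). Against control the differences were 0.15 ± 0.25 (SE; limma adjusted p = 0.793) and 0.48 ± 0.25 (SE; limma adjusted p = 0.323). On probe ILMN_2484527, restraint minus control was 0.17 and restraint plus propranolol minus control 0.29 without the 3 low-weight arrays. On probe ILMN_3121255 these differences were 0.42 and 0.70 in that setting, and the latter did not pass (limma adjusted p = 0.2).

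**Figure D3:**
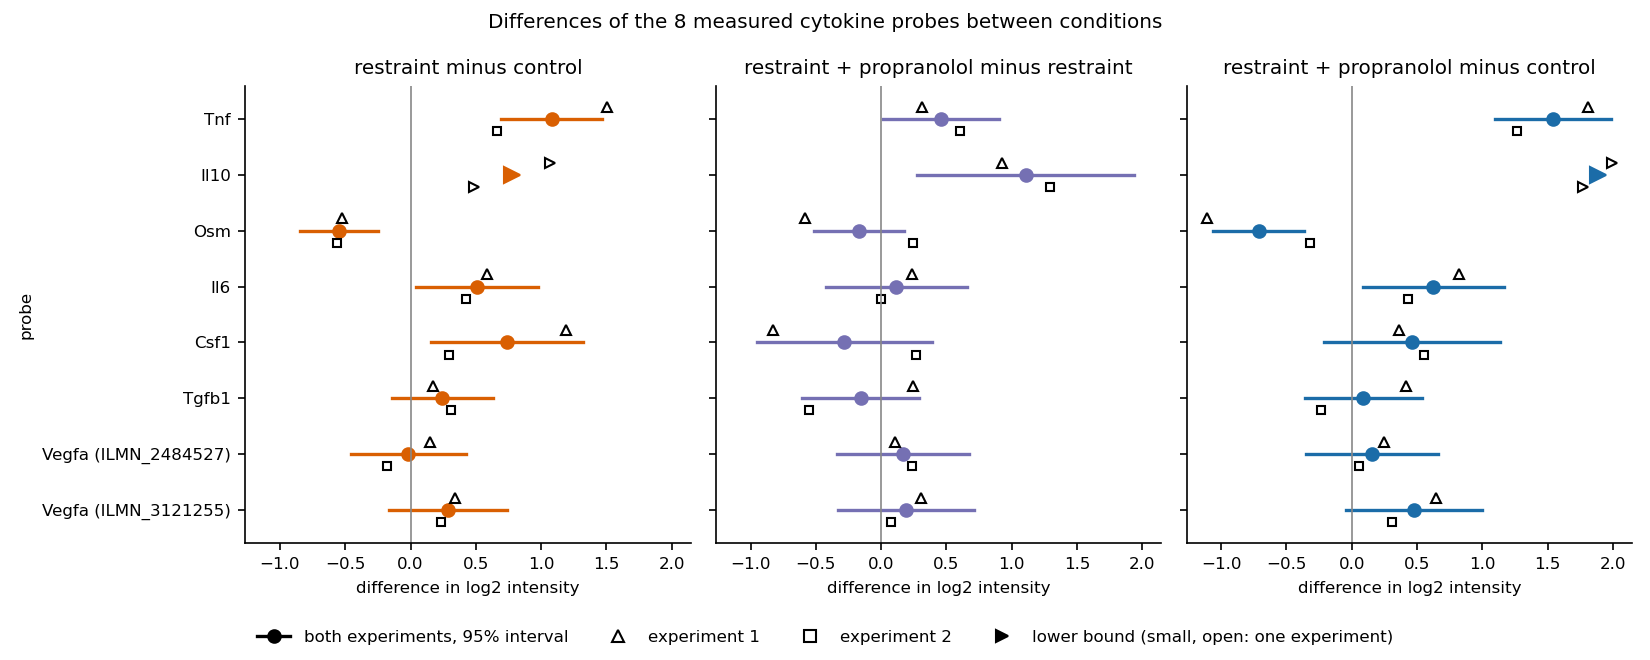
Difference in log2 intensity between conditions for the 8 measured cytokine probes, with the estimate over both experiments and its 95% interval as a filled point and line, and the estimates of experiment 1 (triangles) and experiment 2 (squares). For Il10 against control, which was undetected, arrowheads mark lower bounds that take undetected stressed arrays at their readings. The Il10 interval between the stressed conditions rests in part on control values below detection. Restraint minus control is 1.08 for Tnf and -0.55 for Osm, and restraint plus propranolol minus control is 1.54 for Tnf, at least 3.69-fold for Il10 and -0.71 for Osm.

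The order of the 6 group means differed between the genes. For Tnf both propranolol groups were highest (9.19 and 8.96), then both restraint groups (8.65 and 8.59), then both control groups (7.93 and 7.15). The gap between restraint in experiment 2 and control in experiment 2, 0.66, and the gap between the control groups, 0.78, exceeded the SDs on either side, whereas the propranolol and restraint groups, apart by 0.31 or less, did not separate clearly from their neighbours. Il10 had the same order of conditions. Its means were 6.95 ± 0.75 (SD, n = 3) and 6.80 ± 2.00 (SD, n = 3) with propranolol. Under restraint they were 6.03 ± 1.03 (SD, n = 5) and 5.51 ± 0.56 (SD, n = 5), before the undetected controls. The gaps between adjacent stressed groups, 0.77 or less, were smaller than the SDs on either side, so these groups did not separate. Osm ran the other way at its top, with both control groups highest (11.97 and 11.69), and experiment 1 propranolol was lowest (10.86). For Il6, Csf1 and Tgfb1 experiment 1 control was lowest, but adjacent means lay within the spread of the arrays.

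Genes with the pattern most like each member were found by Pearson's r over the 26 arrays after the experiment means were subtracted, among 10791 other genes. For Tnf they were Pde4b (0.93) and Pde4a (0.92), phosphodiesterases that degrade cyclic AMP, then Mapk6 (0.89), Icam1 (0.89), an adhesion receptor for leukocytes, and Nlrp3 (0.89), an inflammasome sensor. For Il10, undetected on 13 of the arrays, they were Il10ra (0.88), its own receptor chain, then Znf41-ps, Hilpda and Tnf (0.83 each) and Il1a (0.82). For Osm they were Dusp1 (0.89), a MAP kinase phosphatase, Irgm2 (0.86), Fos (0.78), Acss1 (0.77) and Med19 (0.77). Likeness was weaker for Il6, for which Mdm2, Klf9, F2r, Rel and Echdc3 had r between 0.66 and 0.67. For Csf1 it was led by Hal (0.83) and Tgm2 (0.82), for Tgfb1 by 4833439L19Rik (0.83) and Guca1a (0.80), and for Vegfa by Sh2d3c (0.78). These are descriptions of the same arrays, which share normalization and condition differences.

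The receptors and pathways of these cytokines were taken as lists, with 1 probe, the brightest, per gene. The lists were chosen with earlier results of these data known, and both comparisons with control use the same control arrays. List calls, their shares and their p-values are therefore descriptions. Of 19 measured ligands of the same families (38 listed), limma called 0 in each of the 3 comparisons, with 1 in each at an unadjusted p under 0.05. Among 13 measured receptors of 17 listed, Il10ra, the ligand-binding chain of the IL-10 receptor, was the only one that passed, and only in restraint plus propranolol minus control. It rose there by 1.12 ± 0.28 (SE; limma adjusted p = 0.0216). The call was lost without the 3 low-weight arrays (0.76, limma adjusted p = 0.137) and in 2 of 26 fits that left out 1 array. Across all 10792 genes, 1.04% were called higher and 1.2% lower in restraint minus control, and 1.85% and 1.95% in restraint plus propranolol minus control.

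In restraint minus control the 117 measured genes of the 7 lists gave 7 called higher and 1 lower. Tnfaip3, a ubiquitin-editing brake on TNF signalling, was higher by 0.46 ± 0.12 (SE), and Zc3h12a, a ribonuclease that cuts Il6 and other cytokine mRNAs, by 0.59 ± 0.13 (SE). Pim1, a kinase induced by STAT proteins, was higher by 1.32 ± 0.26 (SE), and Il4ra, a receptor chain for IL-4, by 0.68 ± 0.17 (SE). The TGF-beta co-repressors Tgif1 and Skil were higher by 0.80 ± 0.13 (SE) and 0.59 ± 0.16 (SE), and Ddit4, a hypoxia- and stress-induced inhibitor of mTORC1, by 0.71 ± 0.19 (SE). The median difference of the lists ran from 0.002 for cytokine mRNA turnover to 0.15 for TGF-beta activation and signalling, and that of all 10792 genes was -0.003. Calls of Zc3h12a, Pim1 and Tgif1 held in all 26 fits that left out 1 array, and those of Tnfaip3, Skil, Ddit4 and Il4ra in 6, 9, 10 and 16.

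In restraint plus propranolol minus control, 12 list genes were called higher and 1 lower. These calls and p-values are descriptions too, as the lists were chosen with earlier results of these data known. Zc3h12a rose by 0.84 ± 0.16 (SE; limma adjusted p = 0.00242), Tgif1 by 1.06 ± 0.16 (SE; limma adjusted p = 0.000186), Skil by 0.78 ± 0.18 (SE; limma adjusted p = 0.0135) and Pim1 by 1.45 ± 0.30 (SE; limma adjusted p = 0.00687). Mapkapk2, the kinase that stabilizes Tnf mRNA downstream of p38, rose by 1.18 ± 0.32 (SE; limma adjusted p = 0.036), and Tnip1, a partner of the Tnfaip3 product, by 0.92 ± 0.25 (SE; limma adjusted p = 0.039). Socs3, the feedback inhibitor of IL-6 signalling, rose by 0.79 ± 0.22 (SE; limma adjusted p = 0.0496), Bcl3, an atypical inhibitor of the NF-kappaB family, by 0.71 ± 0.16 (SE; limma adjusted p = 0.0142), and Il4ra by 0.74 ± 0.19 (SE; limma adjusted p = 0.0306). Furin, which cleaves the TGF-beta 1 precursor, rose by 0.52 ± 0.14 (SE; limma adjusted p = 0.044), and Slc2a1, the glucose transporter GLUT1, by 0.56 ± 0.14 (SE; limma adjusted p = 0.0207). Dusp1, which switches off p38, was lower (-0.60 ± 0.14 SE; limma adjusted p = 0.0196).

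The calls of Zc3h12a, Tgif1, Skil and Pim1 against control held in all 26 fits that left out 1 array. Those of Bcl3 and Slc2a1 held in 25, of Dusp1 in 24, of Il4ra in 20, of Mapkapk2 in 18, of Tnip1 in 17, of Furin in 9 and of Socs3 in 5. Without the 3 low-weight arrays Mapkapk2, Tnip1, Il4ra and Furin no longer passed (limma adjusted p between 0.132 and 0.186). With slide as a fixed term 0 list genes were called against control. In restraint plus propranolol minus restraint limma called 0 of the 117, with 4 at an unadjusted p under 0.05, and the list medians ran from -0.04 to 0.15.

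**Figure D4:**
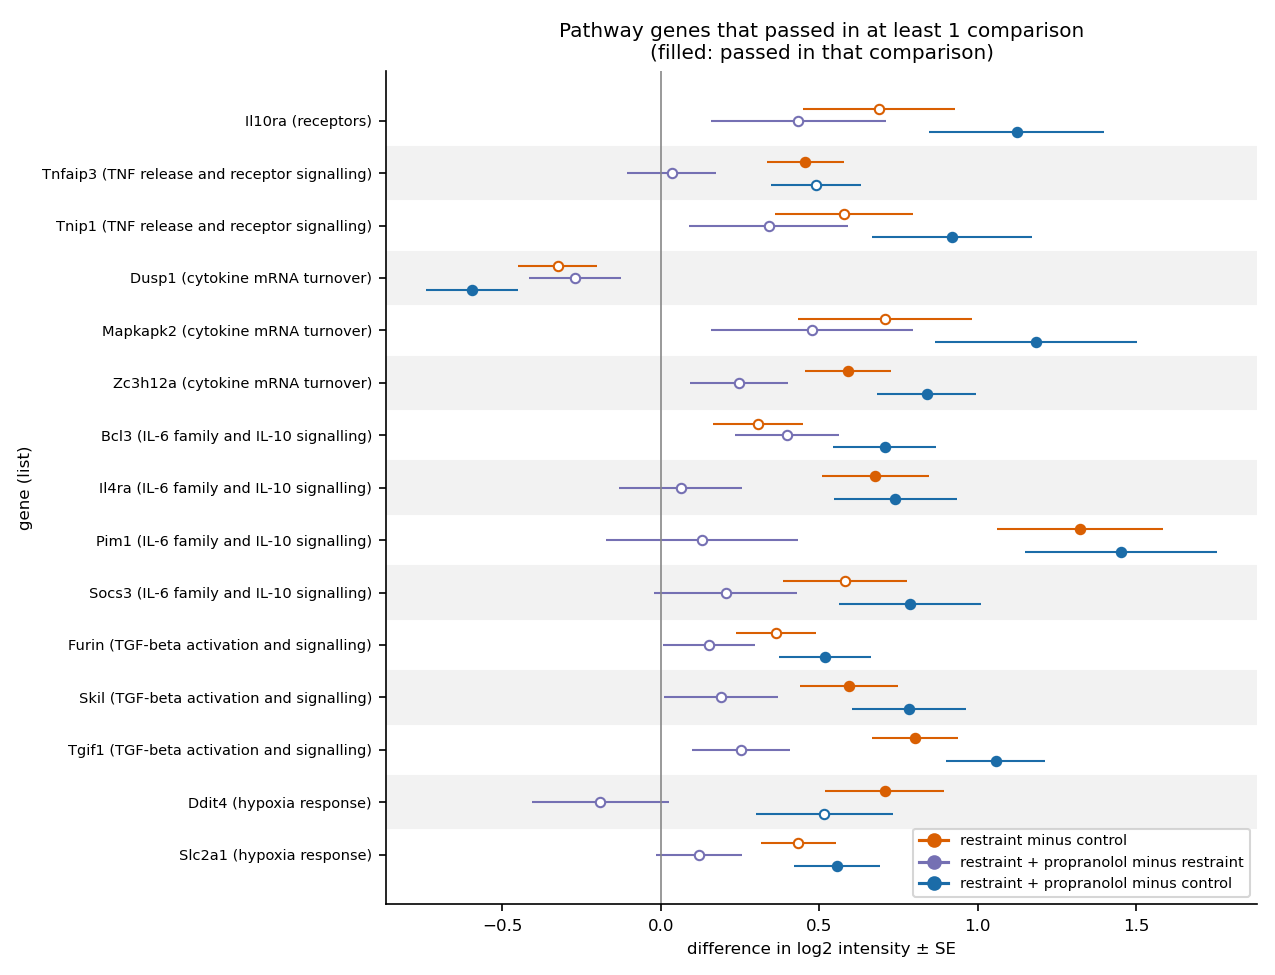
Difference in log2 intensity ± SE for 15 of the 16 listed pathway genes that passed in at least 1 comparison, in each of the 3 comparisons, with filled points where the gene passed. Tgif1, Zc3h12a, Pim1, Skil and Il4ra are filled in both comparisons with control, and no point is filled for restraint plus propranolol minus restraint.

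Markers of other marrow cells also differed in the comparisons with control. Of 9 measured erythroid markers (10 listed), all had lower means under restraint, with 5 called lower there and 1 with propranolol against control. Their summed linear intensity ranged from 709 to 11437 on control arrays, 237 to 2740 on restraint arrays and 215 to 8523 on propranolol arrays. Of 6 measured B-lineage markers (9 listed), all had lower means under restraint, where Rag1 and Vpreb3 were called. With propranolol against control, 1 B-lineage marker was called lower. The B-lineage sum ranged from 287 to 1804, 195 to 435 and 229 to 537 on the same sets of arrays. Neither list had a call in restraint plus propranolol minus restraint. Among 8 monocyte markers only Cd14, a lipopolysaccharide co-receptor, passed, higher by 0.81 ± 0.19 (SE) under restraint and by 1.40 ± 0.22 (SE; limma adjusted p = 0.000314) with propranolol against control. The summed monocyte markers ranged from 1879 to 3429 on control, 2199 to 3425 on restraint and 2928 to 3475 on propranolol arrays. Of the other 59 measured markers (all leukocytes, neutrophil, macrophage, dendritic, T, NK, mast, stromal and megakaryocyte), limma called 0 in each comparison, with 3 to 5 at an unadjusted p under 0.05. The part of these shifts in the cytokine differences was not tested.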

How the data were processed

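The 26 arrays (Illumina MouseRef-8 v2.0) measured amplified total RNA of sorted femoral marrow leukocytes. The authors deposited a raw matrix of bead intensity with bead counts, bead standard errors and a detection p-value per probe, which the submitters' processing notes credit to GenomeStudio, and a normalized intensity matrix whose method is not given in the sources used here. The raw matrix also holds 6 arrays that carry no sample label and were not used. Groups were taken from the labels. Raw intensities were corrected with limma 3.58.1 neqc (offset 16, R 4.3.3), which uses the detection p-values as deposited, and quantile-normalized on the log2 scale. Only probes detected (p under 0.05) on 3 or more arrays entered the fits (15061, 58.6%), and old symbols were updated through Entrez number, accession or synonym against RefSeq GRCm38.p6.

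Differences between conditions were fitted with limma's lmFit and eBayes over all 26 arrays with experiment as a term, Benjamini-Hochberg adjusted over all kept probes, and called at an adjusted p under 0.05. A 6-group fit gave each experiment alone and the difference between experiments. In simulated data for restraint minus control, 200 of 15061 probes were changed. The fit called 79% of probes changed by 1 and 99% of those changed by 2 on the log2 scale, with 10 false calls among the unchanged probes. The simulation drew independent noise for each probe and array, without effects of slide, experiment or array quality. Its shares therefore do not measure how the fit performs on these arrays. The members and lists were chosen with earlier results of these data known. Named besides the members are list genes that were called, at most 4 per list and comparison by size, and the 5 genes most like each member in pattern; 2 genes that these rules name are not reported here. For Il10, undetected on all control arrays, folds are bounds against the lowest detected signal of each array, with undetected stressed arrays at their readings. The number of arrays limits the precision. Figures were drawn with matplotlib 3.10.9.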

Additional observations from a re-analysis of the deposited data

Results flagged for a closer look

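Tnf on control replicate 5 of experiment 1 was 6.22, apart from the next lowest of its 5 arrays at 7.25, and this array is one of the 3 of lowest quality weight. Vegfa probe ILMN_3121255 on restraint replicate 5 of experiment 2 was 5.08, apart from the next lowest at 6.65. These were the 2 groups, of 32 checked, in which 1 array stood this far from the others, and chance alone gives about 1 in 20. Tgfb1 in restraint plus propranolol minus restraint went in opposite directions, with all 3 propranolol arrays of experiment 1 above the restraint mean (0.24) and all 3 of experiment 2 below it (-0.55), a difference of -0.79 that did not pass (limma adjusted p = 0.919).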

How the results depend on the processing

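The number of arrays and a quality spread among them limit these results, and slide is largely nested in condition and experiment. For restraint minus control, 310 probes, 2 members and 8 list genes were called. Those counts were 184, 1 and 4 without the filter on dim probes, 195, 1 and 2 with median scaling, 1150, 4 and 19 with array weights, and 103, 1 and 4 with slide as a fixed term. Without the 3 arrays of lowest weight, an alternative added after the data were seen, 507 probes and 4 members were called. For restraint plus propranolol minus control, 526 probes, 3 members and 13 list genes were called, which became 1371 probes and 21 list genes with array weights, 32, 0 and 0 with slide as a fixed term, and 8 list genes with median scaling. Restraint plus propranolol minus restraint gave 0 calls, and 10 with array weights. The difference between experiments gave 0 calls in each comparison, but 1 for restraint minus control with array weights and 11 for restraint plus propranolol minus restraint with slide as a fixed term. The cause of these shifts was not tested.

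Leaving out 1 array at a time gave 147 to 436 probes, 1 to 3 members and 3 to 10 list genes for restraint minus control, 299 to 654, 2 to 3 and 5 to 15 for restraint plus propranolol minus control, and 0 to 4 probes for restraint plus propranolol minus restraint. The differences between experiments then gave 0 to 27 calls for restraint plus propranolol minus restraint and 0 to 10 for restraint plus propranolol minus control. The deviations of same-numbered arrays had r from -0.27 to 0.32 over 22 pairs, 4 of them over 0.1. Differently numbered pairs were not set beside them, so these values cannot tell whether the numbers pair arrays. With replicate number as a replicate block, 1 member was called in restraint minus control, and 307 probes and 8 list genes in restraint plus propranolol minus control, where Osm no longer passed (-0.73, limma adjusted p = 0.058).

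The following single differences turned sign or moved. Restraint minus control within slide 3 was -0.016 for Csf1 and 0.623 for Tnf. Restraint plus propranolol minus restraint within slide 3 was -0.129 for Tnf, -0.089 for Il6, 0.305 for Csf1, and -0.415 and -0.189 for the Vegfa probes ILMN_2484527 and ILMN_3121255, and within slide 2 it was 0.261 for Tgfb1. With slide as a fixed term it was -0.164 for Vegfa ILMN_2484527, 0.053 for Ddit4 and -0.054 for Furin, and against control it was -0.009 for Tgfb1 and -0.222 for Vegfa ILMN_2484527. In the comparison with restraint, array weights gave -0.018 for Tnfaip3, -0.005 for Pim1 and -0.166 for Il4ra, the replicate block -0.08 for Tnfaip3, and leaving out the 3 arrays -0.117 for Il4ra. With 1 array left out, it ran from -0.013 to 0.088 for Tnfaip3, -0.019 to 0.231 for Pim1 and -0.115 to 0.196 for Il4ra, and against control from -0.008 to 0.2 for Tgfb1. The range of group means, 2.048 for Tnf and 0.718 for Tgfb1, was 1.436 and 0.256 in the deposited normalized matrix and 1.366 and 0.257 on log2 raw intensity. For Il10, whose controls were below detection, the range of 2.424 was 1.036 and 1.04 in those settings.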
